A study of Mus musculus with 27 samples.

Results

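The chains of 7 fibrillar collagens (Col1a1, Col1a2, Col3a1, Col5a1, Col5a2, Col5a3 and Col11a1) were followed in mouse aorta, in isolated aortic fibroblasts and in single cells. The genes were taken by symbol, and 7 of 7 were found among the 42375 genes of the 4 bulk count tables and the 32285 features of the 4 single-cell matrices. All mice had a C57BL/6 background and 28 days of infusion with angiotensin II (Ang II), a pressor hormone, and no group without Ang II was analysed here. Bulk RNA came from non-stripped aorta (3 TKO, 3 Cre), stripped aorta (2 TKO, 4 Cre), isolated aortic fibroblasts (3 TKO, 3 Cre) and non-stripped aorta of TKO mice given Ang II with an anti-IL-9 antibody (2) or with IgG (3). Digested non-stripped aorta gave 4 single-cell libraries (2 TKO, 2 Cre). The series concerns KLF10 and IL-9 in CD4+ T cells and perivascular fibrosis, but the labels define neither TKO nor Cre, name no promoter or cell type that drives a recombinase, and do not say what stripping removed. Whether 2 libraries of a group came from separate mice is not given in the labels, so each p-value measures the spread between libraries only.

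Fibrillar collagens are secreted as triple-stranded procollagens, trimmed at their ends, packed into fibrils and cross-linked by lysyl oxidases. Col1a1 and Col1a2 encode the chains of type I collagen, which carries tension in most connective tissue, and Col3a1 encodes the single chain of type III collagen, abundant in the vessel wall. Col5a1 and Col5a2 encode the main chains of type V collagen, which starts fibrils and limits their width. Col5a3 encodes a rarer type V chain known from fat and peripheral nerve, and Col11a1 a type XI chain best known from cartilage. In the adventitia these RNAs are made chiefly by fibroblasts.

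One sequence feature that most of these genes share is a match to the seed of the miR-29 family, microRNAs known to lower collagen RNAs in mouse heart. The microRNAs themselves were not measured here. The 3 mature sequences are shown because 1 heptamer serves for all of them, with the seed (bases 2 to 8) in capitals.

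mmu-miR-29a-3p: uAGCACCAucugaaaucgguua

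mmu-miR-29b-3p: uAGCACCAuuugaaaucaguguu

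mmu-miR-29c-3p: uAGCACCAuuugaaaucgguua

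The complement of that seed, TGGTGCT, was searched on the transcript strand of 1 annotated 3′ UTR per gene, and no other motif was searched. Col5a1 held 4 matches, Col5a3 held 3, Col11a1 held 2, and Col1a1, Col3a1 and Col5a2 held 1 each, while Col1a2 held none in this window. Of 20984 mouse 3′ UTRs, 13.1% held at least 1 match and 2.04% at least 2. Among UTRs of like length, 0.0715% held at least as many as Col5a1 and 0.149% at least as many as Col5a3. The sites below belong to chains that passed the test between anti-IL-9 and IgG libraries, with the match in capitals and 30 bases each (GRCm38): Col1a1 at chr11:94952522-94952551 and Col3a1 at chr1:45348966-45348995 on the plus strand, and Col5a3 at chr9:20770774-20770803, chr9:20770497-20770526 and chr9:20770245-20770274 on the minus strand.

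Col1a1 site: ggtgggaaggaatttcTGGTGCTatagaag

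Col3a1 site: cttcaaaatgtctcaaTGGTGCTataataa

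Col5a3 first site: ccccacatgggctcctTGGTGCTgaggctc

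Col5a3 next site: cctccaccaggcctttTGGTGCTattcctt

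Col5a3 last site: aaatcaggatcctacaTGGTGCTgccctgc

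A match is a description of these letters. Matches occur in genes whose level was lower with anti-IL-9 (Col1a1, Col3a1) and in the gene whose level was higher (Col5a3). The genes lie on 6 chromosomes, and only Col3a1 (chr1:45311538-45349706, plus strand) and Col5a2 (chr1:45374321-45503282, minus strand) are neighbours, 24614 bases apart with 0 protein-coding genes between them.

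Total counts ran from 17179257 to 38633457 per bulk library. The share of mitochondrial transcripts was 16.9% to 21.0% for non-stripped aorta, 3.16% to 9.11% for stripped aorta, 0.796% to 0.970% for fibroblasts and 19.6% to 25.0% for the antibody table. Klf10 was read at 822, 696 and 0 counts in the libraries labelled TKO and at 1049, 943 and 1400 in Cre non-stripped aorta, so its RNA was mixed among the TKO libraries. In the libraries labelled TKO stripped aorta it had 1005 and 616 counts, against 849 to 1887 in Cre. In fibroblasts it had 2304, 1890 and 2439 counts in TKO and 2746, 1957 and 1922 in Cre, so the groups overlapped. The antibody libraries, all labelled TKO, had 381 to 1022 counts. The labels do not say which part of Klf10 was deleted or in which cells, so these counts check the labels only in part.

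The collagens together took 0.0632% to 0.0966% of counts in non-stripped aorta and 1.66% to 2.87% in stripped aorta. Their share was 0.342% to 0.872% for fibroblasts and 0.123% to 1.09% for the antibody table. The tables were normalised separately, so levels set across them are descriptions with no test. Levels below are CPM (counts scaled to a common library total) after TMM scaling, and the order of genes is given per kb of transcript. In all 6 non-stripped libraries that order was Col3a1, Col1a2, Col1a1, Col5a3, Col5a2, Col5a1 and Col11a1. In all 6 stripped libraries Col1a2 came first, Col1a1 and Col3a1 exchanged places between libraries, and Col5a2, Col5a1, Col5a3 and Col11a1 followed. In all 6 fibroblast libraries Col1a1 came first and Col1a2 next.

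Col5a3 changed place between the tables. Per kb, it stood at 0.482 to 0.892 of the Col1a1 level in non-stripped aorta, at 0.00620 to 0.0140 in stripped aorta and at 0.0115 to 0.0378 in fibroblasts. The non-stripped range of this ratio lay above both others. In the antibody table, also of non-stripped aorta, it was 0.506 and 0.539 with anti-IL-9 but 0.0317 to 0.115 with IgG. Col5a3 itself was at 11.5 to 17.4 CPM per kb in non-stripped and 9.71 to 13.7 in stripped aorta, which overlap, and at 4.93 to 9.07 in fibroblasts. Col1a1, the denominator, ranged per kb from 16.9 to 28.5 CPM in non-stripped aorta, from 720.0 to 1617 in stripped aorta and from 198 to 464 in fibroblasts. In the antibody table it was 55.6 and 72.6 CPM per kb with anti-IL-9 and 111 to 537 with IgG, so all 5 libraries, labelled as non-stripped TKO aorta, stood above every library of the non-stripped genotype table.

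**Figure D1:**
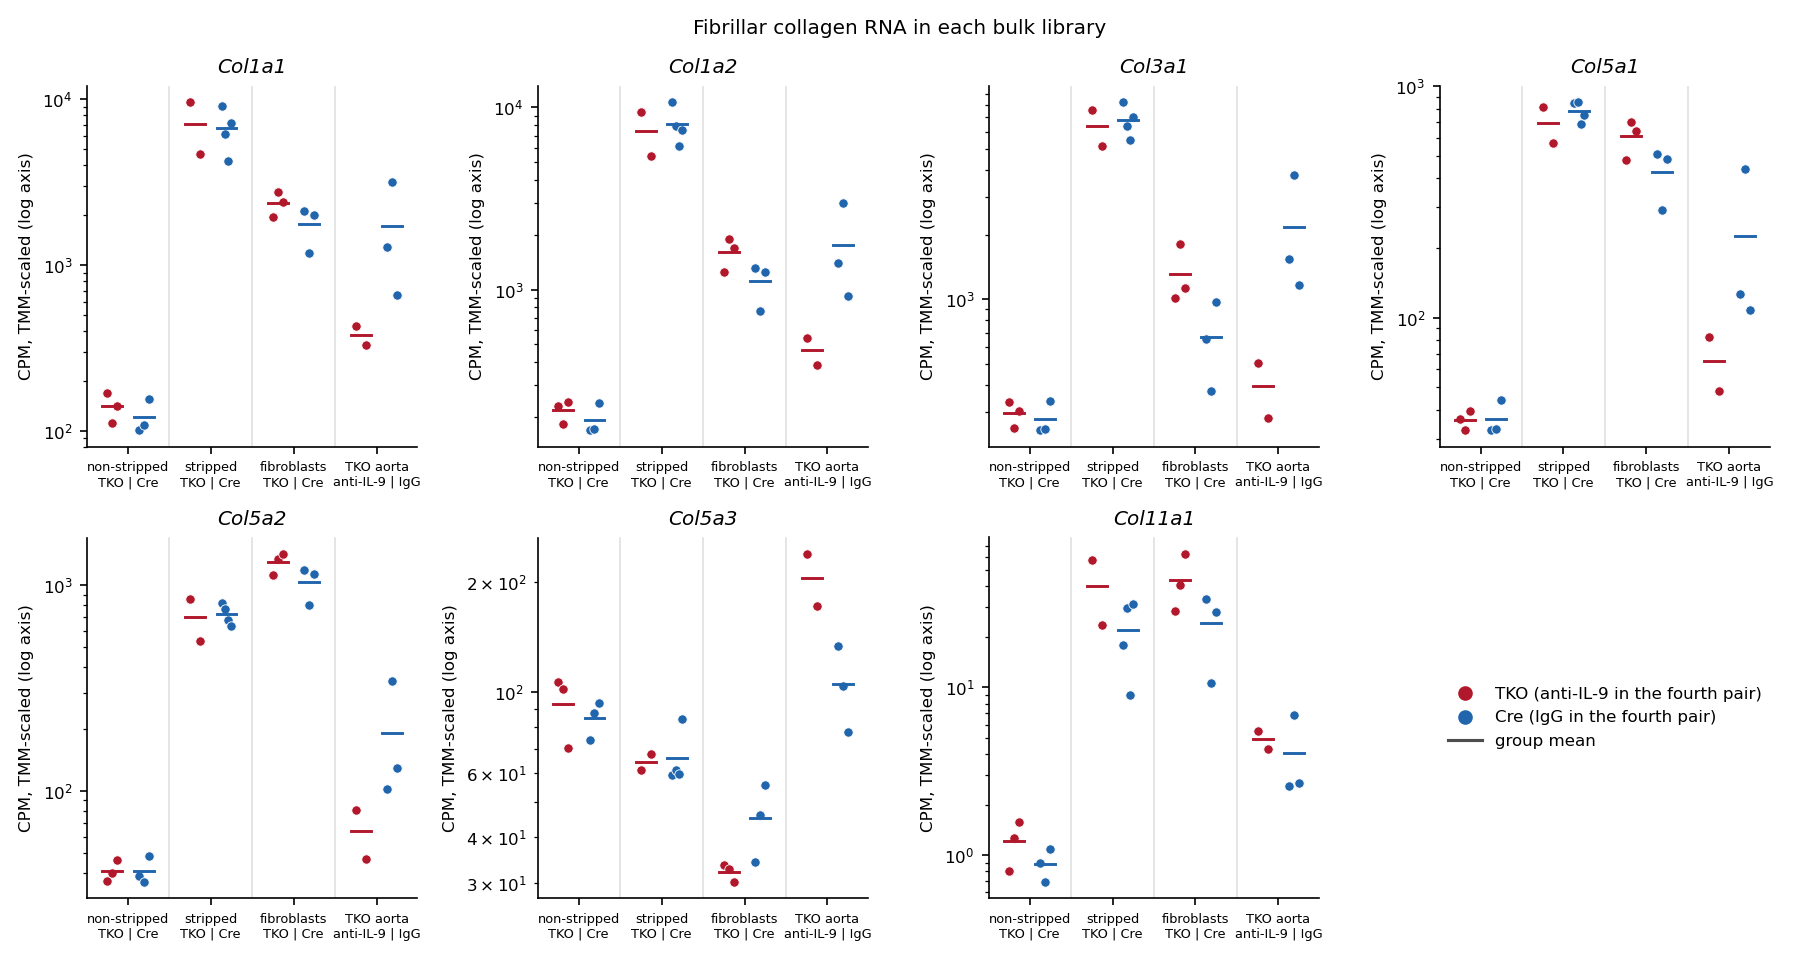
CPM after TMM scaling (log axis) of each collagen in every bulk library, 1 panel per gene, with TKO or anti-IL-9 in red to the left of Cre or IgG in blue; points are libraries and bars are group means. In the antibody table Col1a1, Col1a2 and Col3a1 lie lower, and Col5a3 higher, in both anti-IL-9 libraries than in the 3 IgG libraries.

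In non-stripped aorta, which asks what the genotype did in the whole vessel, no collagen passed the test. Col1a1 had 169, 111 and 142 CPM in TKO and 100.4, 108 and 155 CPM in Cre (log2 fold change 0.21 ± 0.20 (SE), adjusted p = 0.592, edgeR's quasi-likelihood test). Col3a1 had 335, 254 and 304 CPM in TKO and 246, 249 and 337 CPM in Cre (0.10 ± 0.16, adjusted p = 0.759). The groups overlapped for both genes, with a Cre library among the highest.

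Col1a2 (0.17 ± 0.17), Col5a1 (−0.02 ± 0.14), Col5a2 (0.00 ± 0.14), Col5a3 (0.13 ± 0.17) and Col11a1 (0.44 ± 0.33) also overlapped between TKO and Cre. The edgeR test called 0 of 7 (0.119% of 15162 genes were called, 0.0594% higher and 0.0594% lower), 0 of 7 had an unadjusted p below 0.05 (17.9% of genes), DESeq2 called 0 (4.85% of genes), and the groups separated for 0 of 7 (25.5% of genes). The median of the collagens was 0.13 and that of all genes −0.02 on the log2 scale. Without TKO replicate 3, the library with 0 Klf10 counts, Col1a1 was at 0.21 (adjusted p = 0.754) and Col3a1 at 0.086 (0.888). In these bulk samples fewer cells of a type and less RNA per cell cannot be told apart. The summed CPM of 10 fibroblast markers was 1109 to 1774 in TKO and 1039 to 1382 in Cre, with none at 0. Striated muscle markers summed to 3643 to 14741 CPM in TKO and 334 to 1205 in Cre, with 10 of 10 positive and none called, and smooth muscle markers to 175 to 248 in TKO and 339 to 576 in Cre. Their part in the collagen values was not tested.

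In stripped aorta the collagens stood far higher in CPM and varied between libraries of 1 genotype. Col1a1 had 9591 and 4684 CPM in TKO and 9179, 6160, 4269 and 7177 CPM in Cre (0.09 ± 0.37, adjusted p = 0.936). Col3a1 had 7564 and 5175 CPM in TKO and 8224, 6416, 5496 and 7016 CPM in Cre (−0.09 ± 0.23, adjusted p = 0.888). Col5a1, a main type V chain, had 816 and 566 CPM in TKO and 849, 851, 684 and 754 CPM in Cre (−0.18 ± 0.18, adjusted p = 0.688). TKO replicate 1 was above TKO replicate 2 for 6 of the 7 genes, Col5a3 being the exception, and the groups overlapped for all 7.

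Col11a1 had the largest point estimate, with 57.2 and 23.6 CPM in TKO and 18.0, 29.7, 8.96 and 31.6 CPM in Cre (0.87 ± 0.51, adjusted p = 0.491). By edgeR 0 of 7 were called (0.0240% of 16688 genes, 0.0120% in each direction), 0 had an unadjusted p below 0.05 (13.8%), DESeq2 called 0 (3.24%), and 0 separated (23.6%). The median log2 fold change was −0.06, against 0.00 for all genes. Smooth muscle markers summed to 3912 to 5905 CPM in TKO and 6478 to 7562 in Cre, and adipocyte markers to 7067 to 7313 in TKO and 1719 to 3827 in Cre, neither list with a called gene. Their part was not tested.

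The genotype effect itself was compared between non-stripped and stripped aorta with an interaction term. The difference of log2 fold changes ran from −0.45 ± 0.77 for Col11a1 to 0.28 for Col1a2, with adjusted p of 0.732 to 0.943. The edgeR test called 0 of 7, against 0.00571% of 17501 genes, all of it higher (0% lower). No collagen had an unadjusted p below 0.466, and DESeq2 called 0 (5.56% of genes).

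In isolated aortic fibroblasts the point estimates of 6 of the 7 collagens were positive in TKO and that of Col5a3 was negative, and none passed the adjusted test. Col3a1 had 1015, 1809 and 1128 CPM in TKO and 654, 375 and 976 CPM in Cre (0.98 ± 0.34, 1.97-fold, unadjusted p = 0.0211, adjusted p = 0.322, edgeR). Each TKO library was above each Cre library. Col5a3 went the other way, with 33.5, 32.8 and 30.2 CPM in TKO and 34.3, 45.9 and 55.5 CPM in Cre (−0.49 ± 0.16, unadjusted p = 0.0150, adjusted p = 0.289). Its groups were apart too, by 33.5 in TKO against 34.3 in Cre at the nearest.

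Col1a2 had 1254, 1885 and 1697 CPM in TKO and 1316, 765 and 1250 CPM in Cre (0.54 ± 0.22, unadjusted p = 0.0421, adjusted p = 0.394). Col1a1, its partner in type I collagen, had 1962, 2753 and 2389 CPM in TKO and 2127, 1176 and 2012 CPM in Cre (0.42 ± 0.22, adjusted p = 0.498). Cre replicate 2 was lowest for 6 of the 7 genes, and the groups overlapped for both type I chains. Col5a1 (0.51 ± 0.22), Col5a2 (0.32 ± 0.16) and Col11a1 (0.86 ± 0.42) overlapped as well.

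Adjusted over all genes, edgeR called 0 of 7 (0.0638% of 15673 genes, 0.0319% in each direction), 3 had an unadjusted p below 0.05 (12.1% of genes), DESeq2 called 0 (2.95% of genes), and 2 separated (17.3% of genes). The median was 0.51, against 0.01 for all genes. With no filter on low counts 2.26% of genes were called, and 4 collagens among them (Col1a2 at adjusted p = 0.0441, Col3a1 at 0.00339, Col5a3 at 0.0194 and Col11a1 at 0.0491). Fibroblast markers summed to 1293 to 1496 CPM in TKO and 1201 to 1386 in Cre with none at 0, while macrophage markers summed to 118 to 158 in TKO and 193 to 450 in Cre, 0 of 6 positive and none called. Smooth muscle markers summed to 2027 to 2530 CPM in TKO and 1243 to 2222 in Cre. In each TKO library they stood above the fibroblast sum, and in Cre their range reached above it too. The lists hold 6 smooth muscle and 10 fibroblast genes, so these sums do not give shares of cells. The part of these cells in the collagen values was not tested.

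Among the genes that process and bind these collagens, none passed in fibroblasts. Of 18 fibril-binding genes (small proteoglycans and associated collagens), 14 were positive and 7 had an unadjusted p below 0.05 (12.1% of all genes), with a median of 0.43 (0.01 over all genes). Fmod, which encodes the proteoglycan fibromodulin, averaged 13.9 CPM in TKO and 7.75 in Cre (0.84 ± 0.13, adjusted p = 0.114). Tgfb2, a TGF-beta ligand, averaged 23.0 CPM in TKO and 13.4 in Cre (0.78 ± 0.13, adjusted p = 0.125), and Plod2, a lysyl hydroxylase, 304 in TKO and 216 in Cre (0.49 ± 0.12, adjusted p = 0.233). Of the fibrillar collagens outside the set, Col2a1 averaged 1.39 CPM in TKO and 0.575 in Cre fibroblasts (1.28 ± 0.29, adjusted p = 0.226), and none of the 4 (Col2a1, Col11a2, Col24a1 and Col27a1) was called in any comparison that tested it.

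In whole aorta few genes of these lists passed. Ddr1, a collagen receptor kinase, fell to 17.2 ± 1.37 CPM (SD) in TKO against 32.6 ± 2.51 in Cre non-stripped aorta (n = 3 each; −0.92 ± 0.11, adjusted p = 0.0276), the 1 called gene of all 6 lists there. In stripped aorta Ddr1 averaged 36.9 CPM in TKO and 48.0 in Cre (−0.38, adjusted p = 0.221). In stripped aorta 0 of 13 cleavage and cross-linking genes and 1 of 16 folding genes were positive, with medians of −0.31 and −0.23, and none was called. Over all genes 50.2% were positive. Receptors (1 of 8 positive, median −0.33) and regulators (4 of 19, −0.23) leaned the same way. Degradation genes had 4 of 10 positive (−0.22) and fibril-binding genes 10 of 18 (0.09).

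**Figure D2:**
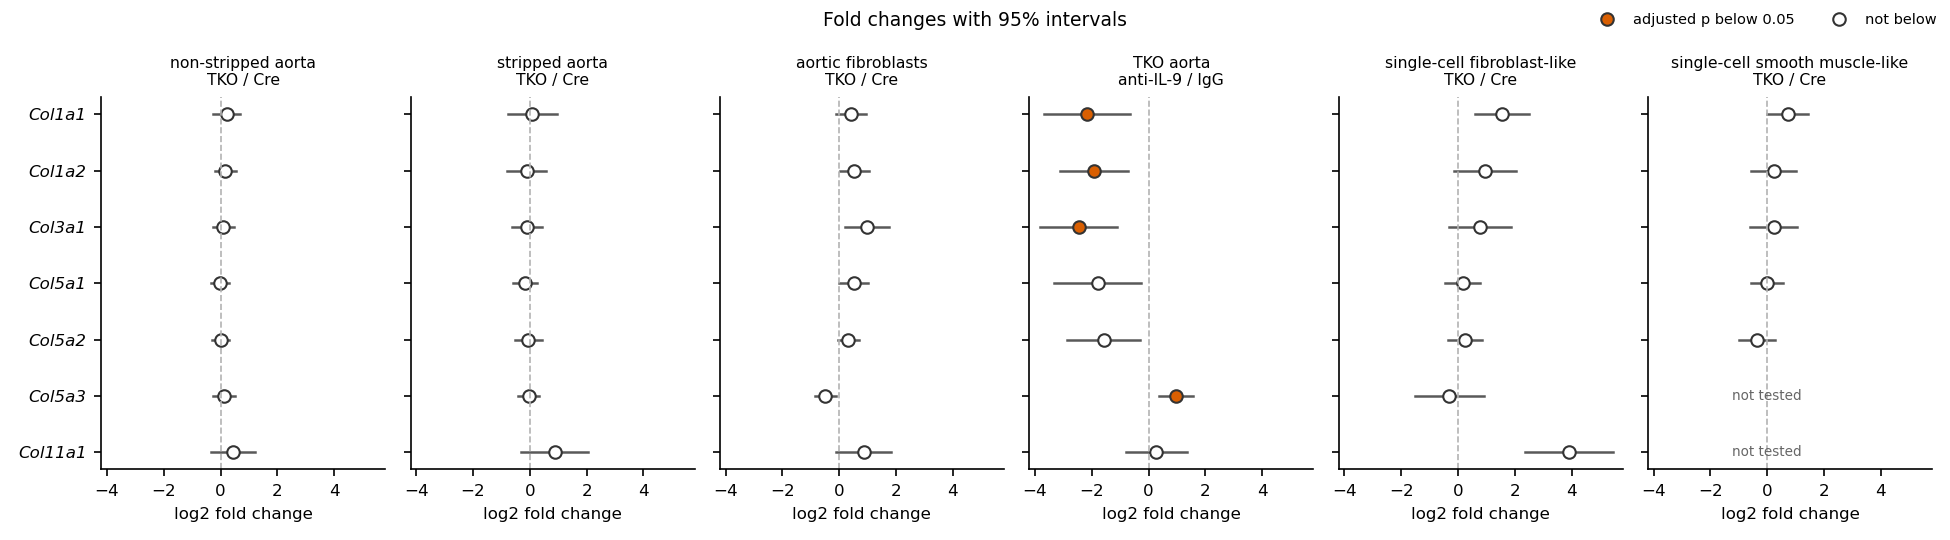
Log2 fold change (x axis) of each collagen with its 95% interval in 6 comparisons, TKO over Cre or anti-IL-9 over IgG; filled points have an adjusted p below 0.05. Filled points occur only in the anti-IL-9 panel, for Col1a1, Col1a2 and Col3a1 to the left of 0 and Col5a3 to the right.

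In TKO aorta the anti-IL-9 antibody, compared with IgG, went with lower type I and type III collagen RNA and higher Col5a3 RNA. Col1a1 had 431 and 330 CPM with anti-IL-9 and 1294, 3187 and 657 CPM with IgG, 0.222 of the IgG level (−2.17 ± 0.64, adjusted p = 0.0392, edgeR). Col1a2 had 545 and 386 CPM with anti-IL-9 and 1394, 2977 and 918 CPM with IgG (−1.92 ± 0.51, adjusted p = 0.0272). Col3a1 had 509 and 281 CPM with anti-IL-9 and 1538, 3801 and 1171 CPM with IgG, 0.182 of the IgG level (−2.46 ± 0.58, adjusted p = 0.0176). The groups did not overlap for these 3 genes, and IgG replicate 2 was the highest library for each.

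Col5a3 had 239 and 172 CPM with anti-IL-9 and 134, 104 and 77.9 CPM with IgG, 1.95 times the IgG level (0.97 ± 0.25, adjusted p = 0.0239). The order of libraries was thus turned round for this chain, with IgG replicate 1 the highest of the IgG libraries. Col5a1 had 82.4 and 48.1 CPM with anti-IL-9 and 127, 440.4 and 108 CPM with IgG (−1.79 ± 0.65, adjusted p = 0.0750). Col5a2 had 80.5 and 46.9 CPM with anti-IL-9 and 102, 342 and 129 CPM with IgG (−1.58 ± 0.55, adjusted p = 0.0650), so the main type V chains were apart between groups but did not pass. Col11a1, with 5.52 and 4.31 CPM with anti-IL-9 and 2.60, 6.85 and 2.69 CPM with IgG, overlapped (0.27 ± 0.46, adjusted p = 0.678).

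The edgeR test called 4 of 7, 3 lower and 1 higher, where 32.1% of 16463 genes were called, 11.0% lower and 21.0% higher. An unadjusted p below 0.05 was reached by 6 of 7 (43.8% of genes), and 6 of 7 separated (59.8% of genes). DESeq2 called 4 (32.0% of genes), and without a filter on low counts edgeR called 6, where 24.6% of genes were called. The median was −1.79, against −0.01 for all genes. Leaving out 1 library ended calls: Col1a1 without IgG replicate 1 (adjusted p = 0.0506), anti-IL-9 replicate 1 (0.126) or replicate 2 (0.154), Col1a2 without anti-IL-9 replicate 1 (0.0813) or 2 (0.121), Col3a1 without anti-IL-9 replicate 2 (0.0870), and Col5a3 without anti-IL-9 replicate 1 (0.142), IgG replicate 2 (0.0560) or 3 (0.0673). Without IgG replicate 2, Col1a1 was at −1.38, Col5a1 at −0.87 (adjusted p = 0.0456) and Col5a2 at −0.88 (0.0469), and without IgG replicate 1 Col5a2 was at −1.90 (0.0314).

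The make-up of the libraries moved with the antibody as well. Fibroblast markers summed to 1239 to 1500 CPM with anti-IL-9 and 2790 to 3729 with IgG, with 8 of 10 called lower and none at 0. Mesothelial markers summed to 4.26 to 7.003 CPM with anti-IL-9 and 133 to 305 with IgG (6 of 6 called lower), and macrophage markers to 132 to 153 with anti-IL-9 and 349 to 624 with IgG (6 of 6 called lower). Schwann cell markers were higher, with 464 to 473 CPM with anti-IL-9 and 122 to 160 with IgG (6 of 6 called higher), and so did smooth muscle markers, with 1372 to 1394 with anti-IL-9 and 446 to 764 with IgG (5 of 6 called higher). Adipocyte markers were at 11266 to 18535 CPM with anti-IL-9 and 22132 to 24854 with IgG (4 of 8 called lower). Endothelial markers were at 437 to 533 with anti-IL-9 and 910 to 1092 with IgG (6 of 7 called lower). Tendon markers were at 51.2 to 69.6 with anti-IL-9 and 114 to 253 with IgG (1 of 6 called lower, 1 higher). Striated muscle markers, at 237 to 267 with anti-IL-9 and 76.9 to 254 with IgG, overlapped (7 of 10 called higher, 1 lower). Of the markers tested, 3 of 3 for neutrophils, 4 of 5 for mast cells, 4 of 5 for monocytes and 3 of 6 for pericytes were called lower. For lymphatic endothelium 2 of 4 were called lower and 1 higher, and 2 of 5 B and 1 of 7 T cell markers were called higher. The part of these cells in the collagen values was not tested.

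Within a library the ratio to Col1a1 differed. Per kb, Col5a3 was at 0.506 and 0.539 of Col1a1 with anti-IL-9 and at 0.0317 to 0.115 with IgG, and Col11a1 was at 0.00992 and 0.0101 of Col1a1 with anti-IL-9 and at 0.00155 to 0.00317 with IgG. Neither pair of ranges overlapped, and these ratios were not tested. Col1a1, the denominator of both, was itself called lower, so the ratios in part restate that fall. The CPM of Col11a1 alone overlapped between the groups. Col1a2 led the per-kb order in both anti-IL-9 libraries, whereas Col3a1 led it in all 3 IgG libraries.

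The genes that act on collagen outside the cell are read against the 11.0% of all genes called lower and 21.0% called higher in this comparison. Of 18 fibril-binding genes 12 fell and 0 rose (median −1.41), among them Fmod, at 12.3 CPM with anti-IL-9 and 57.7 with IgG (−2.23 ± 0.23, adjusted p = 0.000534), and Dcn, which encodes the proteoglycan decorin, at 265 with anti-IL-9 and 732 with IgG (−1.47 ± 0.20, adjusted p = 0.00195). Fmod is also 1 of the 6 tendon markers and Dcn 1 of the 10 fibroblast markers. The fibroblast markers had a median of −1.47, with 8 of 10 called lower. Of 13 cleavage and cross-linking genes 7 fell and 0 rose (median −1.22), including Adamts2, the procollagen N-propeptidase, at 35.6 CPM with anti-IL-9 and 124 with IgG (−1.80 ± 0.41, adjusted p = 0.0152). Of 10 degradation genes 6 fell and 0 rose (median −1.44), with Ctsk, a collagen-cleaving cathepsin, at 11.0 CPM with anti-IL-9 and 39.9 with IgG (−1.86 ± 0.34, adjusted p = 0.00623). The genes of these 3 lists that passed were lower, while 6 of 18, 6 of 13 and 4 of 10 did not pass.

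The lists for steps inside the cell, for receptors and for regulators had shares of called genes near the 32.1% of all genes called in either direction. Among the few called genes of each list, more were lower than higher. Over all members tested, 5 of 8 receptors, 9 of 19 regulators and 3 of 16 folding and secretion genes were positive, against 49.0% of all genes. Over all genes 11.0% were called lower and 21.0% higher. Of 16 folding and secretion genes 4 fell and 1 rose (median −0.46). Crtap, part of the prolyl 3-hydroxylase complex, was at 34.1 CPM with anti-IL-9 and 59.5 with IgG (−0.80 ± 0.14, adjusted p = 0.00507). Sec23a, a coat protein of the vesicles that carry procollagen from the endoplasmic reticulum, was at 58.8 CPM with anti-IL-9 and 29.7 with IgG (0.99 ± 0.16, adjusted p = 0.00383). Of 8 collagen receptors 2 fell and 1 rose (median 0.10), with the integrin chain Itga11 at 3.04 CPM with anti-IL-9 and 9.10 with IgG (−1.58 ± 0.27, adjusted p = 0.00457).

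Of 19 regulators of collagen transcription 6 fell and 1 rose (median −0.04), where 11.0% of all genes were called lower and 21.0% higher. Tgfbr2, a TGF-beta receptor, was at 52.5 CPM with anti-IL-9 and 132 with IgG (−1.33 ± 0.16, adjusted p = 0.000963). Scx, which encodes the tendon transcription factor scleraxis, was at 4.99 CPM with anti-IL-9 and 1.22 with IgG (2.02 ± 0.28, adjusted p = 0.00190). Scx is also 1 of the 6 tendon markers, and that list as a whole was lower (2 of 6 positive, median −1.20). The groups did not overlap for any gene named from these lists. Those genes were named for their small adjusted p, and 59.8% of all genes separated in this comparison.

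**Figure D3:**
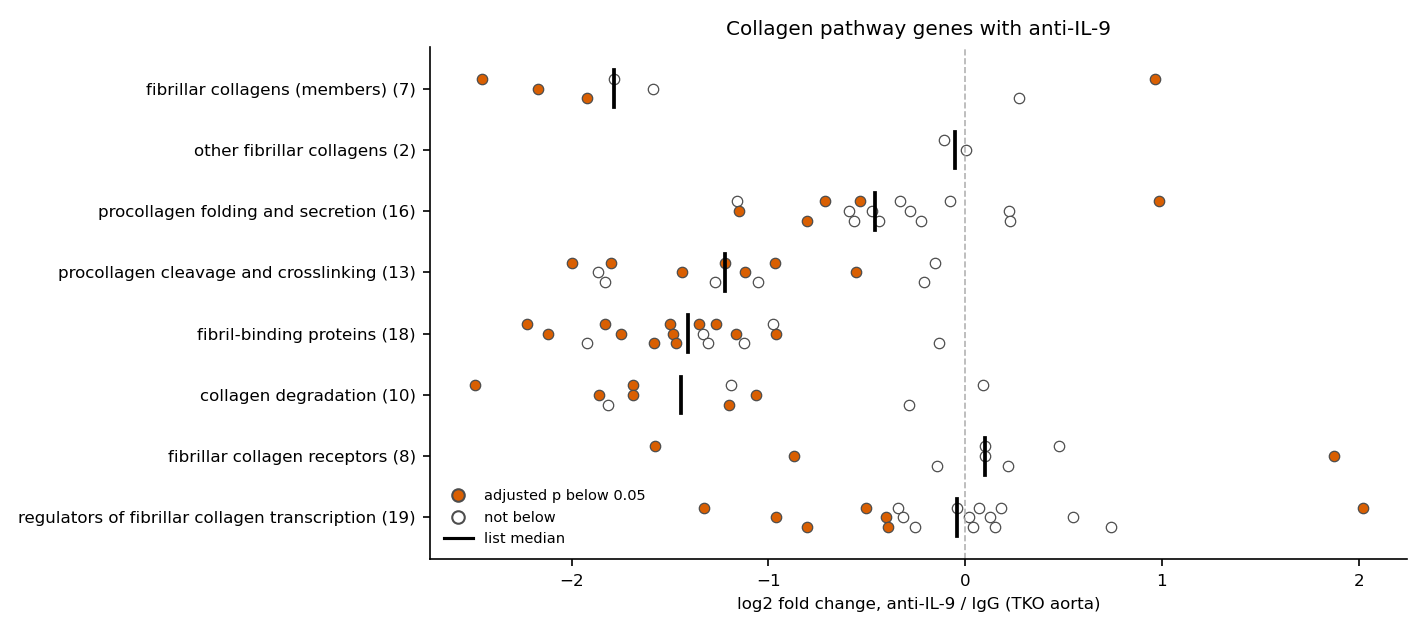
Log2 fold change (anti-IL-9 over IgG) of the 7 collagens and of 7 lists of collagen genes in TKO aorta; each point is a gene, filled where the adjusted p is below 0.05, and the bar is the list's median. The medians of the fibril-binding, cleavage and degradation lists lie between −1.22 and −1.44, near that of the collagens at −1.79, while receptors and regulators lie near 0.

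Single cells of digested aorta were used to see which cells hold these RNAs. Of 114998 barcodes, 43812 passed the filters (15365 and 7425 in TKO, 14489 and 6533 in Cre), with median depths of 1593 and 1409 unique molecular identifiers (UMIs) in TKO and 2768 and 1683 in Cre. Each pair of libraries shared 175 to 338 barcodes, 12 to 68 of them kept in both. Doublets could not be called, and none was removed. Clustering without collagen genes gave 49 clusters, of which 38 were named by markers into 19 classes and 11 (6900 cells) stayed unnamed. Levels by class or cluster are plain CPM (UMIs scaled to the total of that class or cluster, with no TMM factor).

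The Col1a1 level was highest in fibroblast-like cluster 30, which Mmp3 and Sfrp4 lead, at 14896 plain CPM, then in the tendon-like class, led by Thbs4, Fmod and Comp, at 8457. It was 2543 in the fibroblast-like class as a whole and 1174 in the smooth muscle-like class. Among cells not known to make type I collagen, T-like cells held 212 and macrophage-like cells 114, while neutrophil-like cells, at 1124, stood near the smooth muscle-like class. With the libraries summed, the tendon-like class, 7.92% of cells, held 33.3% of Col1a1 UMIs, 25.8% of Col1a2, 20.0% of Col3a1 and 17.6% of Col5a1. By library it held 26385 of 63998 and 15968 of 31734 Col1a1 UMIs in TKO. In Cre it held 1462 of 37751 and 4140 of 10641, so the share in Cre library 1 was far below the summed one.

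Col5a3 and Col11a1 were placed differently. Col5a3 reached 217 plain CPM in Schwann-like cluster 35 and 192 in fibroblast-like cluster 5, led by Penk and Ccl11, against 19.8 in the tendon-like class, 3.59 in the smooth muscle-like class and 2.25 in T-like cells. With every cell thinned to 1000 UMIs, 13.2% of cells of cluster 5 (exact 95% interval 11.7% to 14.8%) and 0.241% of T-like cells (0.110% to 0.457%) had a Col5a3 UMI. Unthinned, the shares were 22.0% and 0.428%, at median depths of 1657 and 1575 UMIs, and no kept cell was too shallow to be thinned. With the libraries summed, fibroblast-like cells held 52.0% of Col5a3 UMIs and Schwann-like cells, 1.22% of all cells, held 7.28%. By library, fibroblast-like cells held 186 of 505 and 58 of 159 Col5a3 UMIs in TKO. In Cre they held 729 of 1195 and 49 of 105, so Cre library 1 weighed most in the sum. It also gave 1018 of the 1789 cells of cluster 5.

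Over all libraries the tendon-like class held 59.4% of the 1179 Col11a1 UMIs. Its level there was 125 and 141 plain CPM in TKO and 6.79 and 136 in Cre, so Cre library 1, with 2 UMIs among 140 tendon-like cells, stood apart from the other 3 libraries. In that library the tendon-like class held 1.38% of Col11a1 UMIs and unnamed stromal cluster 13 held 46.9%. Over all libraries Col11a1 was at 34.1 plain CPM in Schwann-like, 3.99 in fibroblast-like and 1.26 in T-like cells. Col5a2 was at 478 plain CPM in endothelial-like cluster 17, led by Cytl1 and Bmp4, against 28.1 in T-like cells. That cluster, 2.57% of cells, held 6.97% of Col5a2 UMIs, of the 7.84% held by all endothelial-like cells. Cre library 1 gave 559 of its 1128 cells and 1052 of the 1614 Col5a2 UMIs of endothelial-like cells. By library their Col5a2 was at 162 and 76.8 plain CPM in TKO and 263 and 63.7 in Cre.

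**Figure D4:**
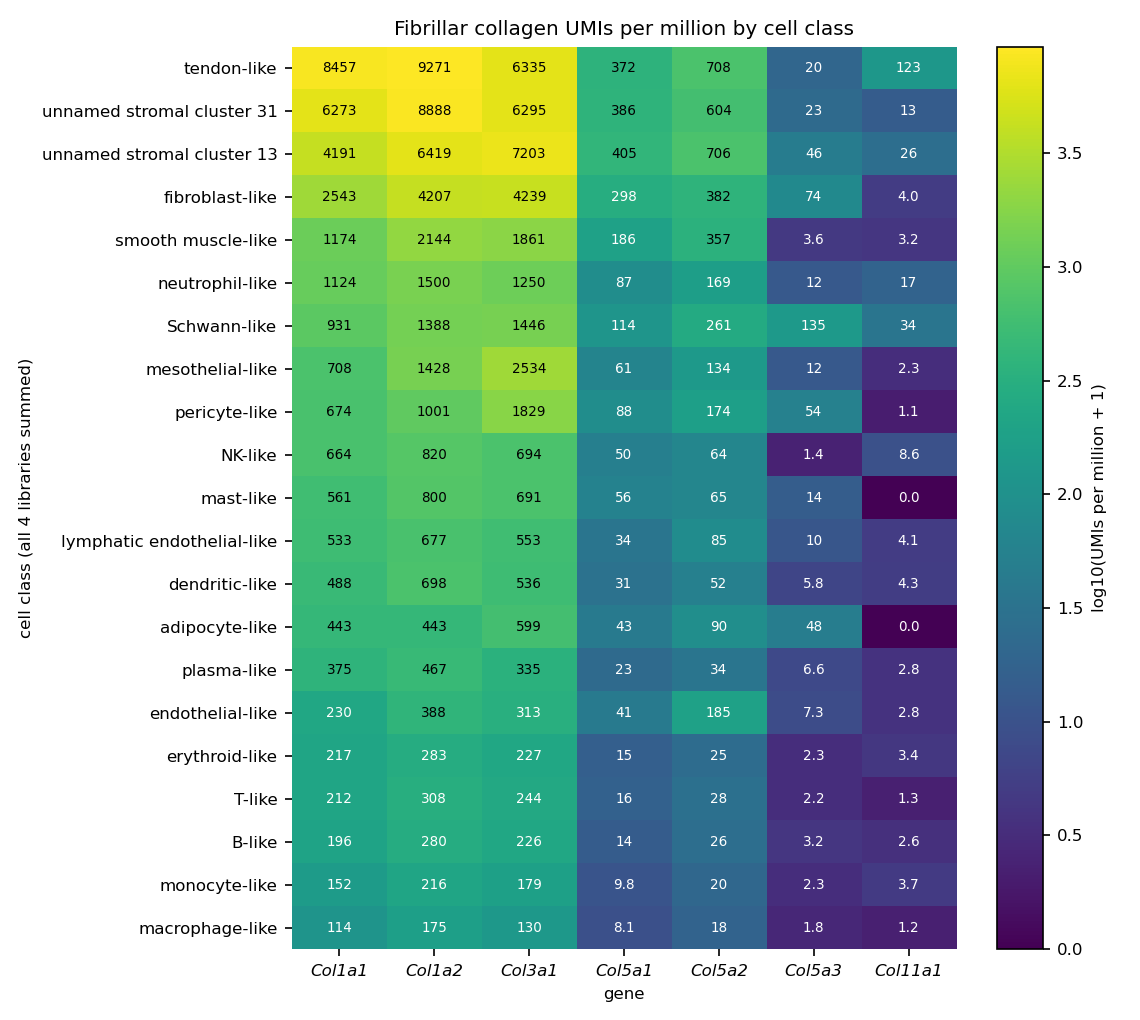
Plain CPM of each collagen by cell class, with the 4 libraries summed, on a log colour scale where yellow is highest. Type I and III chains are highest in tendon-like, unnamed stromal and fibroblast-like cells, Col5a3 in Schwann-like and fibroblast-like cells, and Col11a1 in tendon-like cells.

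Across the 49 clusters, Col1a1 levels followed those of Col1a2 (Pearson r = 0.992), Col3a1 (0.973), Col5a1 (0.938) and Col5a2 (0.914) more closely than those of Col11a1 (0.693) and Col5a3 (0.658). Of other genes, Adamts2 (0.943), Lum (0.930) and Mfap4 (0.926) had the levels most like Col1a1. Itih5 (0.840), Adamts12 (0.832) and Abca8b (0.831) were most like Col5a3, and Fbn2 (0.756), C1qtnf3 (0.719) and Fmod (0.716) most like Col11a1. The clusters come from the same 4 libraries and share their background RNA, so these values are descriptions.

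In the fibroblast-like class summed per library (TMM-scaled CPM), type I and III chains had higher point estimates in TKO, and the set of cells behind them differed between libraries. Col1a1 had 4907 and 3957 CPM in TKO and 1431 and 1559 CPM in Cre (1.57 ± 0.39, 2.97-fold, unadjusted p = 0.00691, adjusted p = 1.00, edgeR). Col3a1 had 6373 and 4345 CPM in TKO and 3449 and 2787 CPM in Cre (0.78 ± 0.45), and both genes' groups were apart. Col11a1 had 12.5 and 6.59 CPM in TKO and 0.622 and 0.632 CPM in Cre, from 49 UMIs in TKO and 6 in Cre (3.91 ± 0.64, adjusted p = 0.736). Only its TKO libraries were high enough for the filter on low counts, so this estimate and its separation are descriptions. Without that filter edgeR called Col11a1 at adjusted p = 3.53e-05 on the same UMIs, where 0.715% of genes were called. In endothelial-like cells it was at 5.96 and 4.52 plain CPM in TKO and 0.999 and 0 in Cre. Monocyte-like cells overlapped, at 1.04 and 3.66 in TKO and 5.90 and 0 in Cre. The part of background RNA was not tested.

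Col1a2 was at 0.96 ± 0.45, Col5a1 at 0.17 and Col5a2 at 0.24, while Col5a3, with 58.2 and 42.5 CPM in TKO and 90.7 and 31.0 CPM in Cre, overlapped (−0.30). The edgeR test called 0 of 7 (0.00899% of 11123 genes, all higher), 2 had an unadjusted p below 0.05 (2.63% of genes), 4 separated (25.4% of genes), and DESeq2 called 1 (0.139% of genes), Col1a1 at adjusted p = 0.000161. Cluster 30 held 2.62% and 0.916% of cells in TKO and 0.255% and 0.0306% in Cre. Without it Col1a1 was at 0.38, Col1a2 at 0.09 and Col3a1 at 0.14. Cluster 30 is also the cluster with the highest Col1a1 level, so a lower Col1a1 estimate without it was set in advance. Cluster 1 was the largest of the class in 3 libraries (746 and 695 cells in TKO, 756 in Cre library 2), whereas cluster 12 (1216 cells) and cluster 5 (1018 cells) were the largest in Cre library 1. Tendon markers in these fibroblast-like cells summed to 163 to 269 CPM in TKO and 30.5 to 47.4 in Cre, none called, and their part was not tested.

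Within clusters the levels differed unevenly. In cluster 5 Col1a1 was at 1956 and 2514 plain CPM in TKO and 2208 and 2424 in Cre. In cluster 1 it was at 1405 and 2074 in TKO and 846 and 1250 in Cre. Cluster 30 had 14777 and 24019 in TKO and 8089 in the 37 cells of Cre library 1. Cells not known to make Col1a1 also differed between genotypes, with 372 and 374 plain CPM in TKO and 49.6 and 107 in Cre T-like cells, and with 449 and 389 in TKO and 57.5 and 85.2 in Cre B-like cells. The part of this background in the fibroblast-like values was not tested.

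Smooth muscle-like cells lay mostly in cluster 8 in both TKO libraries and in Cre library 2 (493, 317 and 320 cells), and in cluster 16 in Cre library 1 (990 cells). Their Col1a1 was at 1641 and 1729 CPM in TKO and 1060 and 980 CPM in Cre (0.72 ± 0.31, unadjusted p = 0.0512, adjusted p = 0.999, edgeR). The other chains were at 0.23 (Col1a2), 0.22 (Col3a1), −0.01 (Col5a1) and −0.36 (Col5a2). Among the 5 tested, edgeR called 0 (0% of 8428 genes), 0 had an unadjusted p below 0.05 (3.07%), DESeq2 called 0 (0.00562%) and 3 separated (30.2%). Col5a3 (8 and 0 UMIs in TKO, 18 and 2 in Cre) and Col11a1 (15 and 3 in TKO, 5 and 2 in Cre) were too sparse to be tested. Fibroblast markers in these smooth muscle-like cells summed to 2667 to 2710 CPM in TKO and 1331 to 1769 in Cre, none called, and their part was not tested.

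Summed over all cells of a library, Col1a1 was at 2235 and 2663 plain CPM in TKO and 776 and 826 in Cre. The tendon-like class held 14.0% and 12.6% of cells in TKO and 0.966% and 3.69% in Cre. Without it Col1a1 was at 1504 and 1490 in TKO and 750.3 and 521 in Cre, and without cluster 30 as well at 1053 and 1260.2 in TKO and 732 and 522 in Cre. Col3a1 was at 2435 and 2041 in TKO and 1490 and 1007 in Cre over all cells, and overlapped without both sets, at 1407 and 1340 in TKO and 1418 and 806 in Cre. Col5a3 overlapped throughout, at 17.6 and 13.3 in TKO and 24.6 and 8.15 in Cre.

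**Figure D5:**
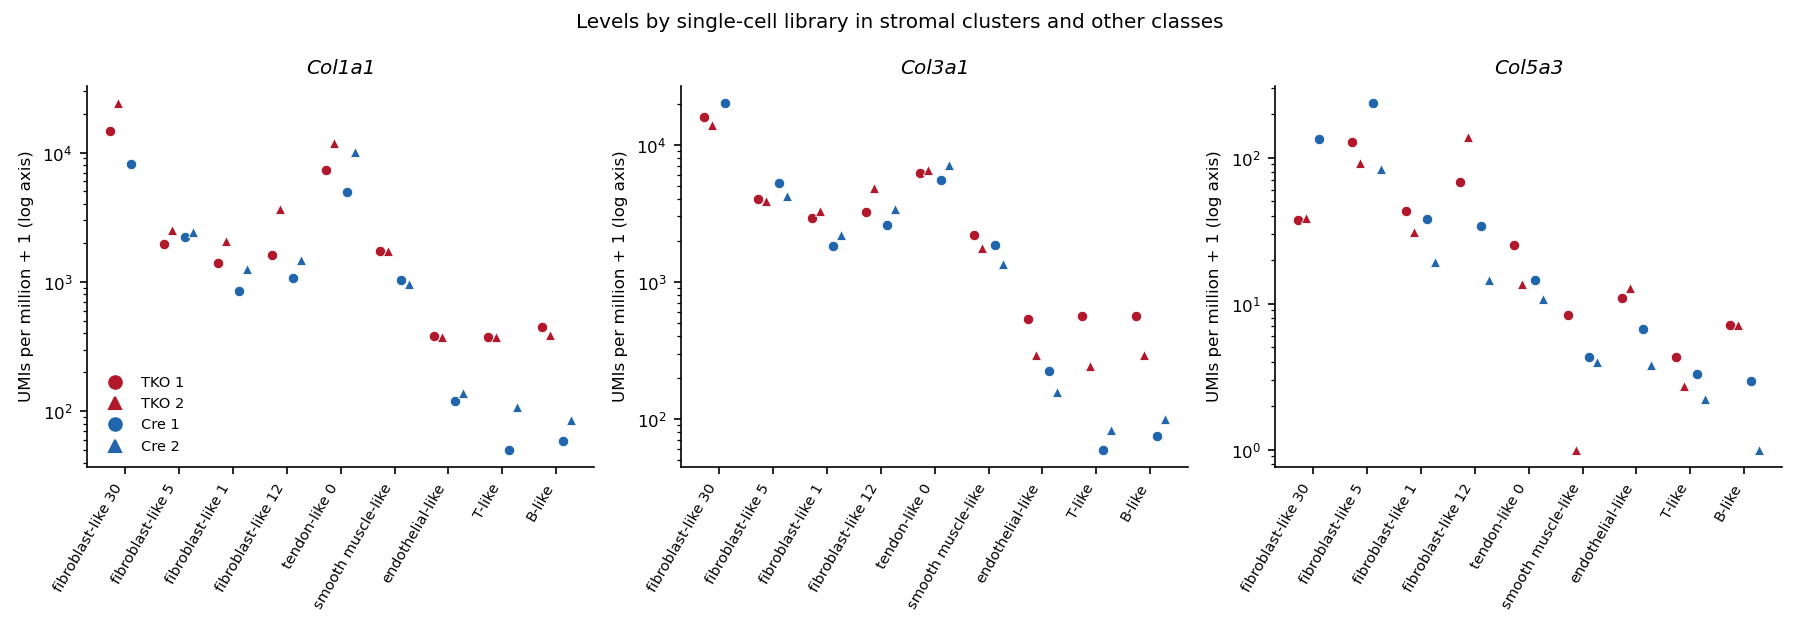
Plain CPM plus 1 (log axis) of Col1a1, Col3a1 and Col5a3 by library, TKO in red to the left of Cre in blue, in 4 fibroblast-like clusters and 5 classes. Col1a1 in T-like and B-like cells lies between 372 and 449 in TKO and between 49.6 and 107 in Cre, and the Cre library with 2 cells in cluster 30 is not drawn there.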

How the data were processed

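Bulk values are raw counts by gene symbol, as deposited by the authors. Of the tools used, the submitters' processing notes list STAR 2.5.2b, featureCounts of Subread 1.5.2 and Trimmomatic 0.36, with the build GRCm38. No source used here gives the strand setting. The single-cell matrices are UMI counts, made with Cell Ranger 6.0.0 per their headers. Titles of stripped libraries carry the word nonstripped, while their other label fields say stripped and were followed. The row with no gene name (at most 0.0025% of counts) and 1 column that no label maps were left out.

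Each table was fitted on its own, over all genes, with edgeR 4.0.16 (R 4.3.3): filterByExpr (minimum count 10), TMM factors, the quasi-likelihood test and Benjamini-Hochberg adjustment at 0.05. Called genes pass that test. DESeq2 1.42.0, no filter, other scalings and leaving out each library were the alternatives. Cells with at least 500 genes, at least 1000 UMIs and at most 15% mitochondrial UMIs were clustered with scanpy 1.11.5 (2000 variable genes, 40 components, 15 neighbours, resolution 1.5; collagen, hemoglobin and mitochondrial genes left out), and counts were summed per library and class for the test. Intervals and floors (3 counts) cover counting error only.

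Genes named from a list are among the 3 with the smallest adjusted p where genes of that list passed, and otherwise the 1 with the smallest p. The genes most like a collagen are among the 5 with the highest Pearson r of log2(CPM + 1) over clusters. The collagens and the lists were chosen with earlier results of these data known. Positions and UTRs come from GENCODE vM21 (GRCm38), with the longest 3′ UTR of each gene, and microRNA sequences from RefSeq (GRCm38.p6), where 3 of 3 matched.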

Additional observations from a re-analysis of the deposited data

Results flagged for a closer look

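In stripped aorta, 1 of the 4 Cre libraries stood apart from the others in Col5a3. Cre replicate 4 had 84.1 CPM, while replicates 1 to 3 had 59.4, 61.3 and 59.7 CPM. The TKO libraries, at 61.3 and 67.6 CPM, lay between them. The threshold that this gap passed is one that chance passes in about 1 in 20 groups.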

How the results depend on the processing

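With anti-IL-9, no collagen turned its direction under the 70 recomputed values, 9 lost their call and 5 gained one. The members called ran from 1 to 5, and all genes called from 3516 to 4793, when 1 library was left out. With 1 library left in a group, that library was assumed to vary like the others.

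Counts of called genes depended on tool and filter. DESeq2 and no filter gave 801 and 766 genes in non-stripped aorta (18 in the main test), 536 and 64 in stripped aorta (4), 424 and 682 in fibroblasts (10, with 4 collagens called without a filter), 18 and 138 in fibroblast-like cells (1, with 1 collagen called by each), 1 and 59 in smooth muscle-like cells (0), and 878 and 159 for the interaction (1). In fibroblast-like cells the count was 7 without cluster 1 and 0 without cluster 12, without cluster 30 or with tendon-like and unnamed stromal cells added. It was 1 in smooth muscle-like cells without cluster 8. Leaving out 1 library gave 0 to 486 genes in non-stripped aorta, 0 to 30 in stripped aorta, 3 to 10 in fibroblasts, 0 to 702 in fibroblast-like cells (0 to 1 collagens), 0 to 27 in smooth muscle-like cells and 0 to 242 for the interaction. The cause was not tested.

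Directions of small log2 fold changes turned. In non-stripped aorta Col5a2 was at −0.00103 with DESeq2, −0.00256 without a filter and −0.00192 with mitochondrial, muscle and adipocyte genes out of the scaling. In fibroblast-like cells Col5a3 was at 0.45 without cluster 5, and without cluster 30 Col5a1 was at −0.068 and Col5a2 at −0.087. In smooth muscle-like cells Col5a1 was at 0.089 in cells of at least 2000 UMIs and 0.21 without cluster 16. Leaving out 1 library gave, in non-stripped aorta, −0.10 to 0.13 for Col5a1 and −0.091 to 0.13 for Col5a2. In stripped aorta it gave −0.52 to 0.52 for Col1a1, −0.57 to 0.23 for Col1a2, −0.39 to 0.16 for Col3a1, −0.47 to 0.059 for Col5a1, −0.44 to 0.24 for Col5a2 and −0.11 to 0.10 for Col5a3. In fibroblast-like cells it gave −0.045 to 0.43 for Col5a1 and −0.84 to 0.73 for Col5a3, and in smooth muscle-like cells −0.0093 to 0.47 for Col3a1 and −0.16 to 0.18 for Col5a1. The interaction ran from −0.33 to 0.75 for Col1a1, −0.088 to 0.77 for Col1a2, −0.082 to 0.52 for Col3a1, −0.11 to 0.47 for Col5a1, −0.27 to 0.46 for Col5a2 and −0.97 to 0.36 for Col11a1. No fibroblast value turned. Leaving out clusters, adding stromal cells and leaving libraries out of the interaction were chosen after seeing the data.

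With the replicate number as a block, which the labels do not tie to a shared batch, 56 genes were called in fibroblast-like cells and 1 in smooth muscle-like cells, with 0 collagens in both, and Col5a1 in smooth muscle-like cells was at 0.000829. The deviations of same-numbered libraries correlated at 0.370 in fibroblast-like and 0.206 in smooth muscle-like cells, over 2 pairs only. Bulk groups carry no shared replicate numbers in their labels. Depth limits Col11a1 and Col5a3 most, which were not tested in smooth muscle-like cells.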
